A study of Mus musculus with 4 samples.

Results

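CUT&RUN-only Runx3 peaks away from gene edges are 3878 regions that a CUT&RUN library of mouse CD8 T cells called and a ChIP library of the same cell type did not. They were chosen by position and by the call in the other assay. A row of the CUT&RUN peak list on chromosomes 1 to 19 or X was kept if it overlapped no row of the ChIP list by 1 bp or more and if its summit lay over 1 kb from both ends of every RefSeq gene. The CUT&RUN list held 15891 peaks, of which 15712 were on those chromosomes and 9041 lay away from gene edges. The 3878 are 42.9% of the 9041, a share that the rule itself sets. The other 5163, which overlapped a ChIP peak, are called shared peaks here and serve as the comparison.

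The CUT&RUN library came from 150000 freshly isolated cells of 1 mouse, and the ChIP library from 50000000 frozen and thawed cells of 5 mice, sonicated before precipitation. All cells were wild-type CD8 T cells taken from adult spleens with anti-CD8a magnetic beads, and both assays used a rabbit serum against Runx3 at a dilution of 1 in 200. A whole cell extract served as the ChIP control, and the normal serum control of CUT&RUN is not analysed here. The strain and sex of the mice are not given in the labels. Each group had 1 library, so no difference between the assays has a replicate check, and no test was run. Cell number, fixation, freezing, serum binding, fragment selection, peak threshold and control all differ or may differ between the libraries and cannot be told apart from the assay.

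Runx3 is a transcription factor with a Runt domain that binds a short DNA motif, usually together with its partner Cbfb. In CD8 T cells it is known for silencing Cd4 and Zbtb7b and for acting at cytotoxic genes. In CUT&RUN an antibody-tethered nuclease cuts short fragments out of unfixed chromatin, whereas ChIP pulls down crosslinked, sheared chromatin. Regions away from gene edges can include enhancers, silencers and start sites inside genes.

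The genes that define the labelled cells carried peaks in both lists. All 4 T cell and CD8 markers checked, Cd8a, Cd8b1, Cd3d and Cd3e, had a CUT&RUN peak and a ChIP peak within 10 kb. Of 5 myeloid markers, Csf1r, Lyz2, Adgre1, S100a8 and S100a9, 0 had a peak within 10 kb in either list, and of 5 B cell markers 3 had one in each. Of 4 dendritic cell markers 3 had a CUT&RUN peak and 2 a ChIP peak, and 1 of 3 NK cell markers and 1 of 4 erythroid markers had one in each list. Longer lists of such markers, used below, also had ChIP peaks near some of their genes. A ChIP peak lay within 10 kb of 4 of 15 myeloid, 7 of 15 B cell and 5 of 12 dendritic cell markers. It did so for 7 of 10 NK cell and 3 of 13 erythroid markers, and for 14 of 20 CD8 and cytotoxic genes. The share of all genes with a ChIP peak is not given here. A peak is not a measure of expression, so purity was not tested by these counts. The alignment given to the CUT&RUN peak caller, named for nucleosome-free fragments, held 17896991 fragments. Of these, 14068364 remained after duplicate removal. The alignment given to the ChIP peak caller held 48285251 fragments, of which 9532996 remained.

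Sequence was at hand for windows around annotated transcription start sites, and 122 of the 3754 CUT&RUN-only peaks on chromosomes with such windows had their summit in one (3.25%, 95% exact binomial interval 2.71 to 3.87%). Since all lie over 1 kb from gene ends, these are starts of internal transcripts. Among shared peaks it was 202 of 5027 (4.02%, 3.49 to 4.60%). The stretches below, the part of each peak that falls in its window, show both kinds of site that the results turn on. They are RefSeq sequences of GRCm38.p6, printed in the direction of the gene, and capitals mark the RUNX core TGTGGT or its reverse complement ACCACA. The strongest of the 122 peaks lay at Fam214b and Tarbp2, and the next at Gtpbp2 and Arntl, the circadian regulator. Of these 4, only the Fam214b stretch holds the core.
Fam214b, chr4:43040274-43040542, minus strand: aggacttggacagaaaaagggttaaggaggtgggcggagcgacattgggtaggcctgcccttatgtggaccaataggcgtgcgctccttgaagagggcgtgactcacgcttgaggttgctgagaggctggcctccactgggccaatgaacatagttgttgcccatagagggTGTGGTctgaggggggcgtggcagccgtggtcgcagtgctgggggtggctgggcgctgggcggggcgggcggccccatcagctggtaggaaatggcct
Tarbp2, chr15:102517942-102518184, plus strand: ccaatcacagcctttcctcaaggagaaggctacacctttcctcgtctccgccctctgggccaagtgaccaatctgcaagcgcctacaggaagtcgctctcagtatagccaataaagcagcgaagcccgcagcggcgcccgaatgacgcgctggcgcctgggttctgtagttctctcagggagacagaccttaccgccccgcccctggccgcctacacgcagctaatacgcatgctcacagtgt
Gtpbp2, chr17:46160782-46161081, plus strand: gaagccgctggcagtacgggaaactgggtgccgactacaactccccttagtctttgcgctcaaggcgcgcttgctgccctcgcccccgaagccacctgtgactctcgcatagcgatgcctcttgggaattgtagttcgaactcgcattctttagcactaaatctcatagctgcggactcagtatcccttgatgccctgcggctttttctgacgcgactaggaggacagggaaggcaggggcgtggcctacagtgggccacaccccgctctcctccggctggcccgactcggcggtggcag
Arntl, chr7:113207215-113207514, plus strand: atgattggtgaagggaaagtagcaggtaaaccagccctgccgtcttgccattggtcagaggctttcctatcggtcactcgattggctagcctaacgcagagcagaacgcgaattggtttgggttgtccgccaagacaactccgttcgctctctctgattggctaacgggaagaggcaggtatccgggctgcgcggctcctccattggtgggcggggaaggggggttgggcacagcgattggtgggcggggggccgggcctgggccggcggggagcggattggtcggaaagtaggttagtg
The other stretches are shown because they hold the core within the peak, which 10 of the 122 did. They include the internal start of Kdm2b, a histone demethylase that binds CpG-rich DNA, those of the paired kinases Limk1 and Limk2, which phosphorylate cofilin, and that of 9130015A21Rik, a non-coding gene with 2 cores in opposite directions.
Kdm2b, chr5:122900336-122900617, minus strand: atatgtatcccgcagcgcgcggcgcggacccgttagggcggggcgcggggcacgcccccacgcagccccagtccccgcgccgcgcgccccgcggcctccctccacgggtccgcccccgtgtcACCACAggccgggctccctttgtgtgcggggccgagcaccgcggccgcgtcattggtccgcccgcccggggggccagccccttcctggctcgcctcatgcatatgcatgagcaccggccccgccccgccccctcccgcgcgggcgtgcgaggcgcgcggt
Adgrg5, chr8:94923542-94923675, plus strand: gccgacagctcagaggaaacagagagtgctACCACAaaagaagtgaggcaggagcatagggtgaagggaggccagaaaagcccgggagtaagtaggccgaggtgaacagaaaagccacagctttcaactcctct
Bcl2l14, chr6:134414379-134414477, plus strand: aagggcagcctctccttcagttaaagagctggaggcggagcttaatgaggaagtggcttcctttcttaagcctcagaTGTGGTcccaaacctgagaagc
Taok2, chr7:126884918-126885058, minus strand: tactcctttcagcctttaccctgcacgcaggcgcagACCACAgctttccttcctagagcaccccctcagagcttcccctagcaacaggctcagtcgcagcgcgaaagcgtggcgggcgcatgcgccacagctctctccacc
Limk1, chr5:134678289-134678368, minus strand: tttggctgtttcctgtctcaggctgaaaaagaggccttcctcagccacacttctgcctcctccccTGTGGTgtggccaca
Limk2, chr11:3371406-3371474, minus strand: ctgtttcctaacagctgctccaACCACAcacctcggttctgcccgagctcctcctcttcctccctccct
9130015A21Rik, chr12:35686389-35686492, minus strand: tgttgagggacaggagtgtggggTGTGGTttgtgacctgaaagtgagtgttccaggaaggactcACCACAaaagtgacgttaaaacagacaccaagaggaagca

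The summit at Fam214b had a pileup of 74 fragments (95% exact Poisson interval 58.1 to 92.9), 122 bases before its start and 29.9 kb from the nearest ChIP peak. Pileup is the number of fragments stacked over the summit after duplicate removal, and its interval covers counting error only, since amplified fragments are not independent molecules. Kdm2b had 44 fragments (32.0 to 59.1) at 48.6 kb from a ChIP peak, and Arntl had 48 (35.4 to 63.6) at 162 kb. Tarbp2 had 71 (55.5 to 89.6), but a ChIP peak lay 54 bp away. The weakest of the printed sites was Limk2, with 11 fragments (5.49 to 19.7). Sites with the core thus span most of the range of the 122 peaks, which ran from 9 to 74 fragments.

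Most of these summits sat just before the start. Of the 122 CUT&RUN-only summits 105 lay upstream, at a median of -71 bases (quartiles -115 and -34), and of the 202 shared summits 168 did, at a median of -60 bases (-102 and -20). The base composition was alike. Windows with a CUT&RUN-only summit had a median of 60.7% G or C and 21.5 CG dinucleotides, and windows with a shared summit 62.0% and 21, against 51.7% and 6 in all 4727 internal start windows. The GC box GGGCGG, the letters bound by Sp and Klf factors, was in 68.0% of CUT&RUN-only windows (59.0 to 76.2%), 69.3% of shared windows (62.4 to 75.6%) and 29.5% of all internal start windows. Both kinds of peak therefore sat at CG-rich starts.

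The RUNX motif did not follow the GC box. The core TGTGGT, searched on both strands, was in 13 of 122 CUT&RUN-only windows (10.7%, 5.80 to 17.5%) and 49 of 202 shared windows (24.3%, 18.5 to 30.8%). It is in 17.5% of all internal start windows, and in 16.6% of all 32585 start windows on the chromosomes used. The other RUNX form TGCGGT was in 6.56% of CUT&RUN-only windows (2.87 to 12.5%) and 18.3% of shared windows (13.2 to 24.4%), against 5.48% of all internal start windows. For either form the shares were 15.6% (9.64 to 23.2%) and 40.6% (33.8 to 47.7%), against 22.1%. The intervals of CUT&RUN-only and shared windows did not overlap for the core, for the other form or for either form. No test was run on these counts, and the start sites described here were chosen after their values were seen.

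Shared peaks were stronger, so the same shares were taken at pileups up to 24. There either form was in 13 of 90 CUT&RUN-only windows (14.4%, 7.92 to 23.4%) and 37 of 80 shared windows (46.2%, 35 to 57.8%). At pileups of 25 or more it was in 18.8% of 32 CUT&RUN-only windows (7.21 to 36.4%) and 36.9% of 122 shared windows (28.3 to 46.1%), and the core in 15.6% (5.28 to 32.8%) and 21.3% (14.4 to 29.6%). There the intervals overlapped for both. Within the peak alone, a stretch with a median of 118 bases in CUT&RUN-only peaks and 149 in shared ones, the shares were 10.7% (5.80 to 17.5%) and 35.6% (29.0 to 42.7%). Letters of the core in another order differed less. TGGTGT was in 5.74% of CUT&RUN-only windows and 8.91% of shared windows, and GTTGGT in 7.38% and 6.44%. In all internal start windows these were in 14.6% and 9.27%. A share in CUT&RUN-only windows below that of all internal starts was therefore not particular to the core. The ETS letters AGGAAG were in 36.1% (27.6 to 45.3%) and 40.6% (33.8 to 47.7%), with overlapping intervals, and the AP-1 motif TGANTCA in 1.64% and 4.95%. A match is letters in a window, not a bound site, and these windows hold 3.25% of the CUT&RUN-only peaks. The rest, in introns and between genes, were not searched.

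**Figure D1:**
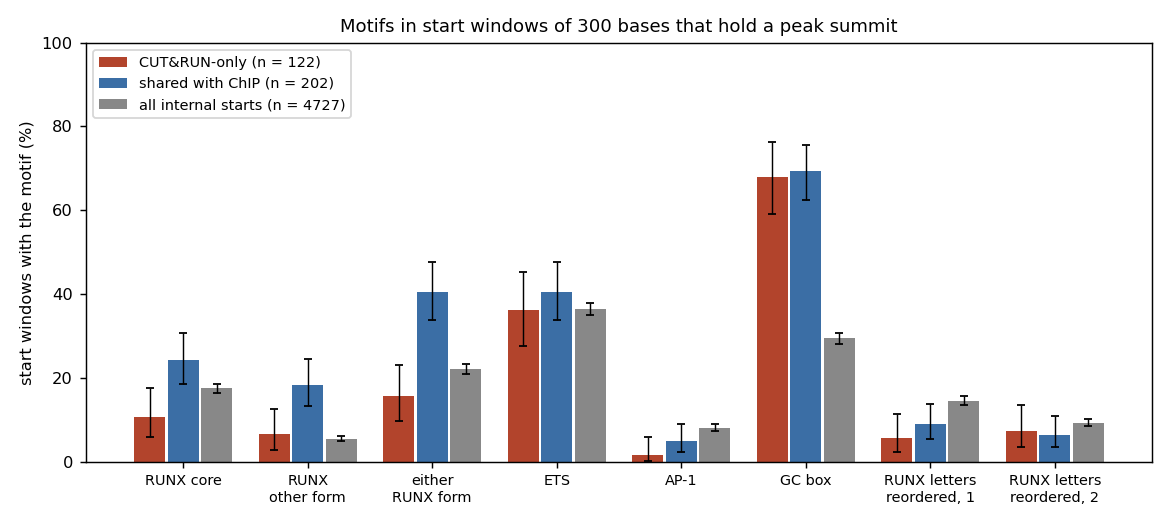
Share of 300-base start windows (y axis, %) that hold each motif, for internal starts with a CUT&RUN-only summit, with a shared summit, and for all internal starts. Bars are shares and lines are 95% exact binomial intervals. The GC box is in 68.0% and 69.3% of CUT&RUN-only and shared windows, whereas either RUNX form is in 15.6% and 40.6%.

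Over all 3878 regions, CUT&RUN-only peaks were weaker and narrower than shared ones. These values entered the calls that chose them and are given as a description. The median pileup was 18 fragments (quartiles 14 and 25, range 8 to 1223) in CUT&RUN-only peaks and 35 (23 and 58) in shared peaks. The median width was 106 bp (78 to 147) and 169 bp (121 to 232). Ranked by the authors' q, 27.7% of CUT&RUN-only peaks were above the middle of the CUT&RUN list, against 68.0% of shared peaks. Of 10 equal parts of the list, the strongest held 113 CUT&RUN-only peaks and the weakest 690.

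The local background, the pileup that the peak caller expected from the fragments around a peak, was 0.645 at the median in CUT&RUN-only peaks and 1.21 in shared peaks. With no control library it includes the peak's own fragments, and it rose with pileup. How much of the difference between these medians restates peak strength was not tested. At pileups up to 15 the medians were 0.516 and 0.551, at 21 to 30 they were 0.758 and 0.900, and at 51 to 100 they were 1.14 and 1.85. In 807 CUT&RUN-only peaks (20.8%) the local background stood at the genome average, the lowest value the caller allows, against 4.11% of shared peaks. Position inside genes did not differ in this way. Of CUT&RUN-only peaks 65.9% lay inside a RefSeq gene (64.3 to 67.4%), and of shared peaks 67.2% (65.9 to 68.5%). Of those inside, 84.6% were in protein-coding genes among CUT&RUN-only peaks and 85.9% among shared peaks. Between genes, 43 CUT&RUN-only peaks and 15 shared peaks lay over 100 kb from any gene.

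Among weak peaks the width was close in both sets, and among strong ones it was not. At pileups up to 15 the median was 87 bp in 1373 CUT&RUN-only peaks and 95 bp in 440 shared peaks. At 51 to 100 it was 142 bp in 110 CUT&RUN-only peaks and 234 bp in 1214 shared peaks. Above 100 and up to 250, 36 CUT&RUN-only peaks had a median of 97.5 bp, and 304 shared peaks had 285 bp. Only 8 of those 304 shared peaks were 150 bp or narrower (2.63%), but 28 of the 36 CUT&RUN-only peaks were (77.8%). The 36 are not all separate places, since several lie together in Myo3a and in a cluster on chromosome 6, described below. Above 250 both sets were narrow, with 4 of 6 CUT&RUN-only peaks and 53 of 80 shared peaks at 150 bp or less. Their surroundings differed, with a median local background of 3.57 at the 6 CUT&RUN-only peaks and 126 at the 80 shared peaks.

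**Figure D2:**
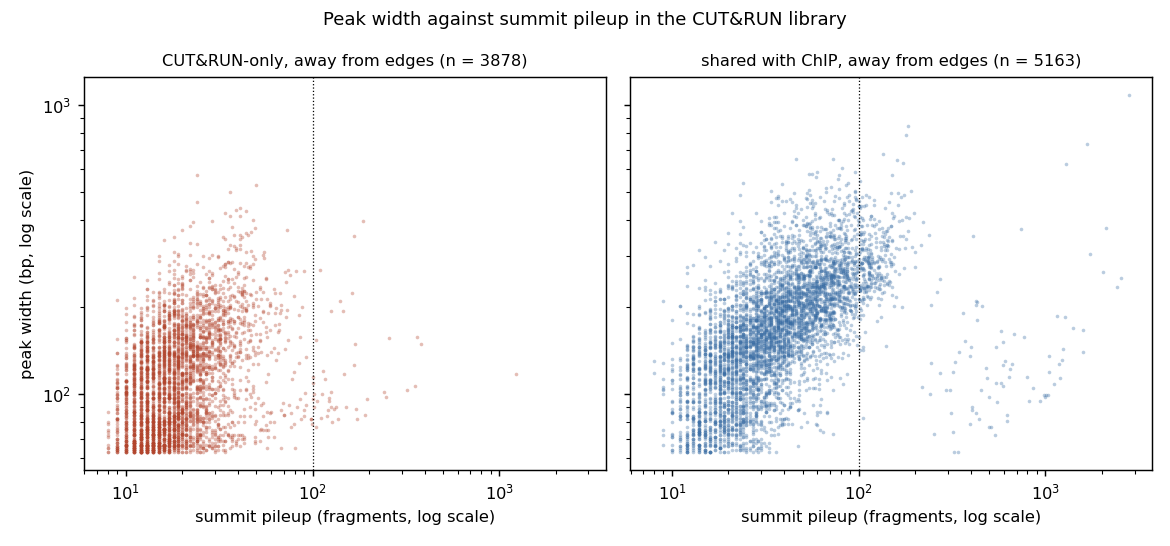
Width of each peak in bp (y axis, log scale) against its summit pileup in fragments (x axis, log scale) for CUT&RUN-only peaks (left) and shared peaks (right) away from gene edges, each point 1 peak. The dotted line marks a pileup of 100. Shared peaks widen with pileup up to about that line, and the 36 CUT&RUN-only peaks between there and 250 lie mostly below 150 bp.

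The 10 best-ranked CUT&RUN-only peaks were narrow, between 85 and 157 bp wide, with pileups from 170 to 1223. Of these 10, 4 lay inside a gene, 0 lay within 10 kb of a ChIP peak, and the distances to one ran from 16 to 1420 kb. The highest stood between genes on the X chromosome, 35.3 kb from Pak3, a kinase of neuronal signalling. Its pileup was 1223 (1155 to 1294) at a local background of 8.21, rank 4 of 15891, and the nearest ChIP peak was 1013 kb away. Cdk5rap2, a centrosome protein, held one with a pileup of 379 (342 to 419), and Dpp9, a dipeptidyl peptidase, one of 240 (211 to 272) at 16 kb from a ChIP peak. A pileup of 362 (326 to 401) was in 2210408I21Rik. The rest were nearest to the pseudogenes Gm18326, Gm6216 and Gm5110, the olfactory receptor gene Olfr854 and the non-coding genes Gm13580 and D130079A08Rik. None of the 10 has a gene of the T cell lists below as its nearest gene.

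CUT&RUN-only peaks lay a median of 18.4 kb from the nearest ChIP peak (quartiles 5.33 and 64.4 kb). Of the 3878, 410 were within 1 kb (10.6%) and 2472 over 10 kb away (63.7%). Those near a ChIP peak had busier surroundings, with a median local background of 1.05 within 0.2 kb, 0.843 at 1 to 10 kb and 0.535 over 100 kb away. Peaks near a ChIP peak were also more often inside genes, 74.2% within 0.2 kb (66.4 to 80.9%) and 58.7% over 100 kb (54.9 to 62.4%). The median pileup stayed between 17 and 20 in every distance class. At the limit of the overlap rule, peaks at Pnkd and Stag2 were kept with a gap of 2 bp, and a peak at Ncoa2 with 3 bp, and a peak at Gm39164 was left out for an overlap of 2 bp. At the limit of the edge rule, a summit at Fam161a was kept at 1003 bp and one at Cdk2ap2 left out at 1000 bp. A shared CUT&RUN summit lay within 10 kb of 1086 of the CUT&RUN-only summits (28.0%).

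**Figure D3:**
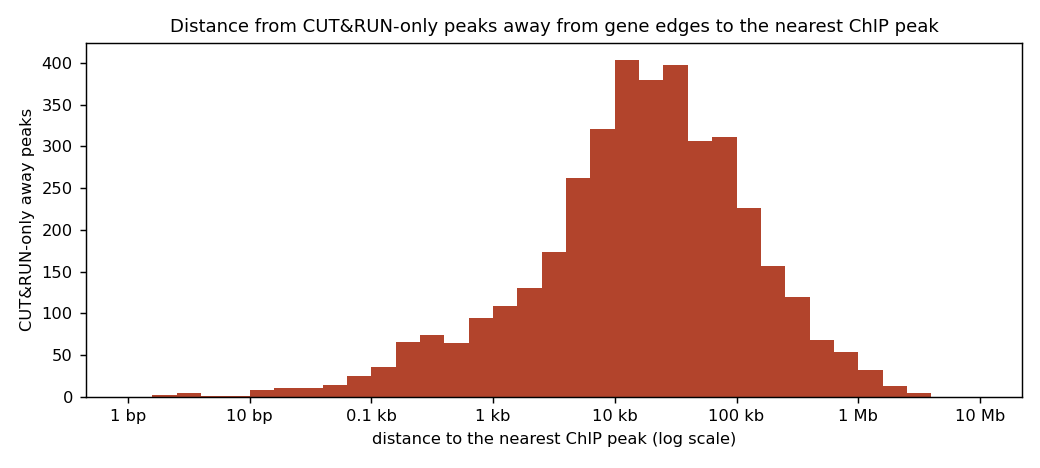
Number of CUT&RUN-only peaks away from gene edges (y axis) by the distance to the nearest ChIP peak (x axis, log scale). The peak of the distribution is between 10 and 100 kb, where 1799 of the 3878 lie, and 151 lie within 0.2 kb.

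The X chromosome stood apart in how often a CUT&RUN peak had no ChIP counterpart. On X 109 of 164 peaks away from gene edges were CUT&RUN-only (66.5%, 58.7 to 73.6%), and on the autosomes 3769 of 8877 (42.5%, 41.4 to 43.5%), with single autosomes between 37.9% and 47.7%. Peaks at gene edges gave much the same, 66.4% on X (58.3 to 74.0%) and 38.6% on the autosomes (37.5 to 39.8%). They were sorted by the same overlap between the same libraries, so this is not an independent check. Among peaks with q of 1e-20 or less it was 52.9% on X (41.8 to 63.9%) and 26.0% on the autosomes (24.8 to 27.2%). In the other direction the gap was small. Of ChIP peaks away from edges 39.1% on X (28.8 to 50.1%) and 35.1% on the autosomes (34.1 to 36.2%) overlapped no CUT&RUN peak. Whether the sex of the mice, 1 for CUT&RUN and 5 for ChIP, bears on this was not tested, since it is not given in the labels. The CUT&RUN list held 14 peaks on Y and the ChIP list 29, but these were not used to judge sex. X held 2.81% of CUT&RUN-only peaks, 1.07% of shared peaks and 1.16% of ChIP peaks away from gene edges.

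**Figure D4:**
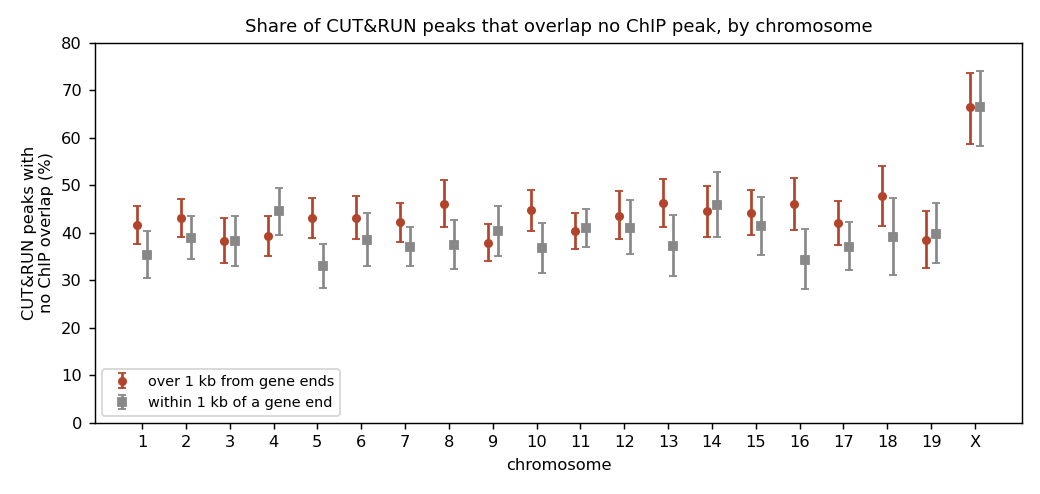
Share of CUT&RUN peaks that overlap no ChIP peak (y axis, %) on each chromosome (x axis), for peaks over 1 kb from gene ends (circles) and within 1 kb of one (squares), with 95% exact binomial intervals. X lies at 66.5% and 66.4%, above each of the 19 autosomes in both.

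CUT&RUN-only peaks were mostly solitary. Joined where their summits lay within 10 kb, the 3878 formed 3527 runs, of which 3234 had 1 member and 8 had 4 or more. The longest run was inside Myo3a, a myosin of sensory hair cells, with 9 summits in 2.51 kb. Their pileups were 68 to 257 on a local background of 14.1, with 0 ChIP peaks or shared peaks among them and the nearest ChIP peak 147 kb away. The next, on chromosome 6, had 6 members with pileups of 91 to 125 over 26.0 kb at the predicted genes Gm40367, Gm40365, Gm36327, Gm40364 and Gm40363. Unlike the Myo3a run, it had 1 ChIP summit among its members, and the smallest gap to a ChIP peak was 0.064 kb. Runs of 5 lay at Ago2, the small-RNA slicer, and on chromosome 13 between genes, and 1 of 4 at Sema4b, a semaphorin. In the Myo3a and chromosome 6 runs no member was below 68, while Ago2 had 22 to 68 and Sema4b 11 to 27.

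Of 21631 protein-coding genes, 2534 had a CUT&RUN-only peak within 10 kb (11.7%), and 1692 had one inside (7.82%). For shared peaks away from gene edges 13.5% had one within 10 kb. Of the 2534 genes, 804 had no ChIP peak within 10 kb (31.7%), so that near these genes the CUT&RUN list alone had a peak. Long genes have more room: of 5 equal classes by length, the longest had 23.5% of genes with a CUT&RUN-only peak within 10 kb and the shortest 2.98%. Most of the 1692 held 1 such peak, and 130 held 3 or more.

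Apart from Myo3a, the protein-coding genes holding most CUT&RUN-only peaks were Sh3kbp1, Foxp1, Arhgef3, Bcor, St8sia1, Bcl11b, Septin9, Itpkb and Ankrd11. Foxp1, which keeps T cells quiescent, held 8, beside 10 shared peaks, with pileups of 13 to 35. Bcl11b, a zinc finger factor of the T lineage, held 6 in 93.7 kb, or 6.40 per 100 kb, with pileups of 16 to 25. Itpkb, an inositol kinase needed in thymocytes, held 5, with pileups of 22 to 52. Of genes on X, Sh3kbp1, an endocytic adaptor, held 8 and Bcor, a corepressor, 6. Bcor had 0 shared peaks, and the best of its 6 CUT&RUN-only peaks lay 70.3 kb from a ChIP peak. Arhgef3 held 7, St8sia1 and Septin9 6 each, and Ankrd11 5. All 10 genes belong to the longest of the 5 classes.

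Most lists of T cell genes carried such peaks more often than the 11.7% of all genes, and they carried shared peaks away from gene edges as often or more often in most cases. Shared peaks lay within 10 kb of 15 of 24 receptor signalling genes, 8 of 20 CD8 and cytotoxic genes, 19 of 28 cytokine receptor genes, 14 of 19 naive and memory genes, 12 of 19 chemokine receptors and integrins and 6 of 11 RUNX family and corepressor genes. Of 24 genes of T cell receptor signalling 14 had one within 10 kb (58.3%, 36.6 to 77.9%), 13 of them inside the gene, and all 24 also had a ChIP peak within 10 kb. The median length in this list, 47.7 kb, falls in a length class of which 13.9% had one. Ptprc, the CD45 phosphatase that primes receptor signalling, had a summit of 48 fragments (35.4 to 63.6) 7.90 kb from a ChIP peak. Plcg1, the phospholipase downstream of Lat, had 41 (29.4 to 55.6), 25.2 kb from one. Rasgrp1, the exchange factor that activates Ras, had 28 (18.6 to 40.5) and Prkcq, the protein kinase C of the synapse, had 5 summits, the best with 26 (17.0 to 38.1). All of these genes thus had a ChIP peak near the gene, but not always near the CUT&RUN-only summit.

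In the list of CD8 lineage and cytotoxic genes, 10 of 20 had a CUT&RUN-only peak within 10 kb (50.0%, 27.2 to 72.8%), 3 of them inside the gene. Prf1, which encodes perforin, had the strongest, with 73 fragments (57.2 to 91.8) 1.68 kb outside the gene and 4.62 kb from a ChIP peak. Here 4 of the 10 genes had no ChIP peak within 10 kb, near the 31.7% of all genes with a CUT&RUN-only peak. A single peak of 48 fragments (35.4 to 63.6) lay 7.48 kb from Ccl3 and 8.26 kb from Ccl4, the inflammatory chemokines, and 89.6 kb from the nearest ChIP peak. The other 2, named after their values were seen, were Tbx21, the T-bet factor of effector cells, with 16 (9.15 to 26.0), and Klrc1, an inhibitory receptor chain, with 12 (6.20 to 21). Crtam, an adhesion receptor of activated cytotoxic cells, had 43 (31.1 to 57.9) inside the gene. Summits also stood near Cd8a, with 25 (16.2 to 36.9), and in Cd8b1, with 11 (5.49 to 19.7), both named after their values were seen.

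Receptors and factors of T cell state were covered to a like extent. Of 28 cytokine receptor and signalling genes 12 had one within 10 kb (42.9%, 24.5 to 62.8%), among them Il18r1 with 51 fragments (38.0 to 67.1), Il6ra with 35 (24.4 to 48.7) and Il12rb1 with 35 (24.4 to 48.7). Tgfbr2, the TGF-beta receptor, had 6 with pileups of 10 to 30. Of 19 genes of naive and memory state 9 had one (47.4%). Bach2, a repressor of effector programmes, had 64 (49.3 to 81.7) at 1.65 kb from a ChIP peak, and Prdm1, which encodes Blimp-1, had 29 (19.4 to 41.6). Zeb2, a factor of terminal effectors, had 25 (16.2 to 36.9) at 35.2 kb from a ChIP peak. In both lists every gene with a CUT&RUN-only peak also had a ChIP peak within 10 kb.

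Inhibitory receptors and exhaustion genes had one in 6 of 13 (46.2%, 19.2 to 74.9%), and 3 of the 6 had no ChIP peak within 10 kb, against 31.7% over all genes with such a peak. Ctla4, which competes with Cd28 for its ligands, had 25 fragments (16.2 to 36.9) inside the gene, 29.3 kb from a ChIP peak. Lag3 had 19 (11.4 to 29.7) and Havcr2, the TIM-3 receptor, a pair of 13 (6.92 to 22.2) and 11 (5.49 to 19.7), both genes named after their values were seen. Tox2 had 32 (21.9 to 45.2), but a ChIP peak lay 0.064 kb away. Tigit had 24 (15.4 to 35.7) at 13.5 kb from a ChIP peak and Entpd1 21 (13.0 to 32.1) at 7.46 kb. Each of these genes had a ChIP peak within 10 kb of the gene. Of 15 residency and activation genes 5 had one (33.3%), led by Cd44, an adhesion receptor with 3 summits, Irf4, Batf and Tnfrsf9. Irf4, with 20 (12.2 to 30.9), had no ChIP peak within 79.0 kb of that summit. Of 19 chemokine receptors and integrins 6 had one (31.6%), Itgb7, Itgb2, Ccr4 and Itgal in the lead, and of the 6 only Ccr4 had no ChIP peak within 10 kb.

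Runx3's own family and corepressors had one in 6 of 11 (54.5%, 23.4 to 83.3%). Their median length, 74.2 kb, falls in the longest class, of which 23.5% had one, a share within that interval. Tle3 had a summit of 33 fragments (22.7 to 46.3) 8.68 kb outside the gene and Tle4 one of 23 (14.6 to 34.5), both Groucho corepressors that RUNX proteins recruit, and Tle5 had 16 (9.15 to 26.0). Runx1 held 4, the best with 22 (13.8 to 33.3) at 56.6 kb from a ChIP peak, and Runx3 itself, named after its value was seen, 1 with 16 (9.15 to 26.0). Of 40 AP-1, ETS, IRF, NFAT, NF-kB and Ikaros factors 14 had one (35%, 20.6 to 51.7%). Ikzf3, which encodes Aiolos, led with 44 (32.0 to 59.1) and 5 summits, followed by Elf1, Fosb and Fosl2. Of 17 apoptosis genes 5 had one (29.4%), Bcl2l1, Bak1, Fasl and Cflar among them. In CD4 and helper genes it was 2 of 16 (12.5%), Icos and Zbtb7b. Zbtb7b, the factor of the CD4 lineage, had 18 (10.7 to 28.4) 2.56 kb outside the gene, with the nearest ChIP peak 33.7 kb away.

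In lists of other cell types the intervals held 11.7%. Of 15 B cell markers 4 had a CUT&RUN-only peak within 10 kb (26.7%, 7.79 to 55.1%), Vpreb3, Cd22, Cd79a and Cd74. Of these 4 genes, too few to compare, 3 had no ChIP peak within 10 kb, against 31.7% over all genes with such a peak. Of 15 myeloid markers 2 had one, Mpo and Itgam, with 21 (13.0 to 32.1) and 24 fragments (15.4 to 35.7) at the best summit. Of 12 dendritic cell markers 2 had one, Itgax and Flt3, and the Itgax summits are the ones at Itgam. Of 10 NK cell markers 2 had one, Il2rb and Fcer1g, and Il2rb is also a T cell gene. Among 13 erythroid markers it was Tfrc alone, among 20 neuronal genes Lsamp alone, and among 15 hepatocyte genes 0. Binomial intervals of these small lists are wide, that of hepatocyte genes reaching 21.8%, and genes are not replicates of a condition.

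**Figure D5:**
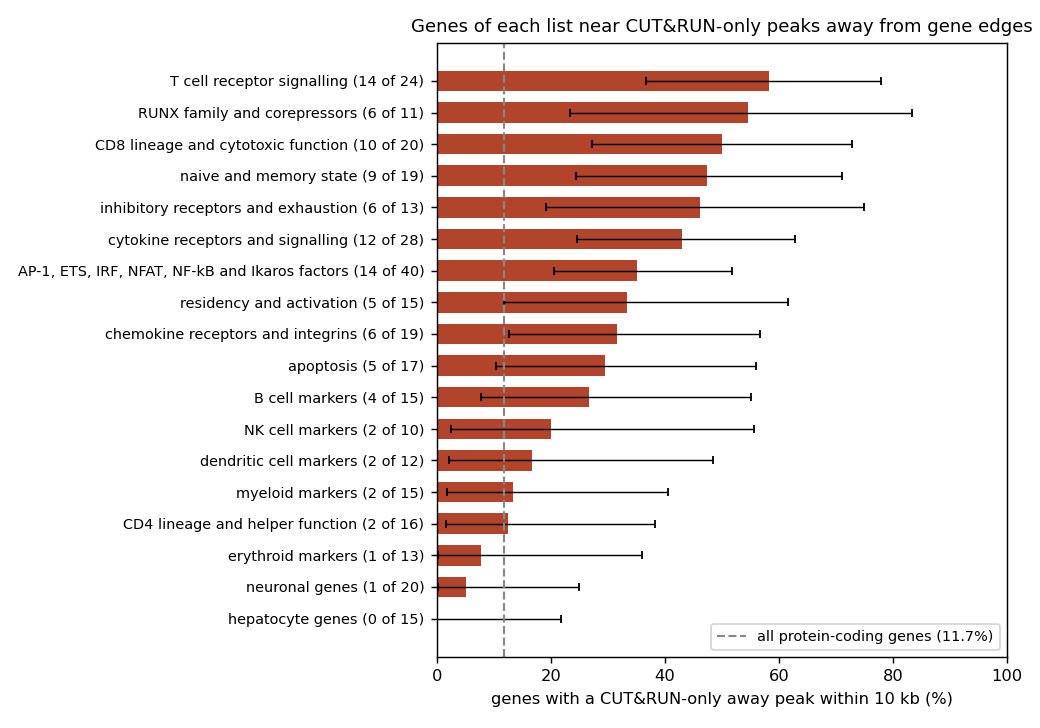
Percentage of the genes of each list with a CUT&RUN-only peak away from gene edges within 10 kb (x axis), with 95% exact binomial intervals and the number of genes in brackets. The dashed line is the share of all protein-coding genes, 11.7%. Lists of T cell function lie between 31.6% and 58.3%, apart from CD4 and helper genes at 12.5%, apoptosis genes at 29.4%, and lists of other cell types between 0% and 26.7%.

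Of 6 gene families, receptor, keratin and ribosomal protein genes lay below 11.7%, and the intervals of solute carriers and Zfp genes held it. Olfactory receptor genes had a CUT&RUN-only peak within 10 kb in 6 of 1110 (0.541%, 0.199 to 1.17%) and vomeronasal receptor genes in 3 of 355 (0.845%, 0.175 to 2.45%). For shared peaks the counts were 4 and 3. Genes of cytosolic ribosomal proteins had 0 of 77, with an interval that reaches 4.68%. A shared peak was near 9 of the 77, where 13.5% of all genes had one. Keratin genes had 0 of 53, with an interval that reaches 6.72%. Solute carriers had 49 of 375 (13.1%, 9.83 to 16.9%) and Zfp zinc finger genes 34 of 397 (8.56%, 6 to 11.8%). The median length is 0.95 kb for olfactory receptors, 3.16 kb for ribosomal proteins and 28.7 kb for solute carriers, and short genes carried fewer such peaks in general. The olfactory receptor and ribosomal protein medians fall in the shortest length class, of which 2.98% had a CUT&RUN-only peak within 10 kb. That share lies within the interval of ribosomal protein genes and above that of olfactory receptor genes.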

How the data were processed

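Coverage pileups, −log10 q values and fold ratios per peak were deposited by the authors, who called 1 list per library with MACS 2.1.1.20160309 on paired-end fragments with at most 1 per position, per the file headers. The ChIP list had a whole cell extract control and a q threshold of 0.05. The CUT&RUN list had no control, a local background over 10 kb and a q threshold of 1e-05, and its alignment is named for nucleosome-free fragments. Bowtie and mm10 come from the submitters' processing notes, and the sources used here do not give the Bowtie version. The fold is the pileup plus 1 over the background plus 1, from which the local background was solved.

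Overlap (1 bp), gene positions (RefSeq, GRCm38.p6) and motif matches were computed with Python 3.11.15, pandas 2.3.3 and scipy 1.17.1. bedtools 2.31.1 counted the same 6497 CUT&RUN peaks without ChIP overlap, gene edges included. The overlap functions were tested on simulated data. Shares have Clopper-Pearson and pileups Poisson intervals at 95%, for counting error only. Members and lists were chosen with earlier results of these data known. Of 309 listed genes 308 matched, and 1 further list is not reported here. Genes named are the nearest to the 10 best-ranked peaks, the 10 holding most, up to 4 per list and the 5 longest runs. Start sites, families, examples at the limits of the rule and a few genes so marked were chosen after their values were seen. Motifs, planned around the summits, were searched in start windows (250 bases before to 50 after), since no genome sequence was at hand.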

Additional observations from a re-analysis of the deposited data

Results flagged for a closer look

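CUT&RUN peaks without ChIP overlap were also found outside the chromosomes used above. On Y all 14 CUT&RUN peaks had no overlap, with pileups of 13 to 96, although the ChIP list holds 29 peaks there. On unplaced contigs 16 of 146 had none, with pileups of 12 to 83. On the mitochondrial genome all 19 had none, with pileups of 270 to 508, and the ChIP list holds 0 peaks there. No control library was analysed for these sequences, and their part in the results above was not tested.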

How the results depend on the processing

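The number of CUT&RUN-only peaks away from gene edges, 3878, ranged from 2688 to 5139 over 9 other settings of the overlap, the edge distance, the gene ends and q, and was 1389 at q of 1e-20 or less. The share inside genes stayed between 65.2% and 67.2%. The median pileup was 19 instead of 18 where only ChIP peaks at q of 1e-05 or less counted and where CUT&RUN q was 1e-10 or less. With a window of 50 kb, 5338 protein-coding genes had such a peak (24.7%), and 15 of 18 lists lay above that share, against 15 of 18 above 11.7% at 10 kb and 12 of 18 above 7.82% for gene spans alone. The share of internal start windows with the RUNX core stayed between 8.20% and 12.5% over 5 other settings, and either RUNX form was in 15.6%. Of these 6, 4 were chosen after seeing the data. The X settings were also chosen after seeing the data: 52.9% of peaks on X were CUT&RUN-only at q of 1e-20 or less, and 81.7% where only ChIP peaks at q of 1e-05 or less counted, against 26.0% and 56.4% on the autosomes. The planned narrower and wider windows around summits were not run, for want of a genome sequence. No paired analysis was possible because each group has 1 library. The ChIP calls rest on 9532996 fragments after duplicate removal, and a region without a ChIP peak may still hold fragments below the threshold.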
